A study of Rattus norvegicus with 23 samples.

Results

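The genes described here are all those whose symbol begins with Nduf, the name given to nuclear-encoded subunits and assembly factors of mitochondrial complex I. They numbered 43 of the 10723 genes with values per library at 12 weeks, and 44 of the 11283 genes in each of the authors' deposited comparison tables; the additional one was Ndufs6. Messenger RNA came from the myocardium of Sprague-Dawley rats, and all 23 samples came from rats with a myocardial infarction (MI) after ligation of the left coronary artery. In MI+TRD a later operation added a TRD device, which the labels name without describing it. At 12 weeks there were 6 MI and 6 MI+TRD libraries, and at 6 weeks 6 MI and 5 MI+TRD samples, which entered only through the authors' deposited table. No group had the device without an infarction or neither operation, and the labels give neither age, sex, nor the part of the heart that was sampled.

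Complex I is the entry point of electrons into the respiratory chain: it oxidises NADH, passes the electrons along iron-sulphur clusters to ubiquinone and pumps protons across the inner mitochondrial membrane. Its N module binds and oxidises NADH, its Q module hands the electrons to ubiquinone, and its membrane arm, with a proximal part next to the Q module and a distal part, moves the protons. Part of the membrane arm is encoded by the mitochondrial genome, and assembly factors build the modules without staying in the finished enzyme. The working heart holds many mitochondria and depends on this chain for its ATP. Of the 44 genes, 10 belong to the N module, 6 to the Q module, 8 to the proximal and 11 to the distal membrane arm, 7 are assembly factors named Ndufaf, and 2 carry an Nduf name but are placed outside complex I (Ndufa4 and Ndufa4l2). The symbols of 7 mitochondrially encoded subunits matched none in the table of values per library, so those genes were not analysed here.

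At 12 weeks the members were lower in MI+TRD than in MI in nearly every case. The mean normalized count in MI+TRD was below that in MI for 42 of 43 members, and a member's mean in MI+TRD was 46.9% to 128% of that in MI. For 33 members each of the 6 MI+TRD libraries was below the MI mean. The share of all genes tested that met either of these counts is not given here. The median log2 fold change of the members was −0.65, against −0.14 over all 10655 genes tested. With limma, 0 of 43 members passed an adjusted p of 0.05, as did 0% of all genes tested, and the members' lowest adjusted p was 0.133. At an unadjusted limma p below 0.05, 37 members (86.0%) were lower and 0 higher, against 19.1% lower and 2.8% higher among all genes tested. In the authors' deposited 12-week table, 11 of 44 members (25.0%) fell at a false discovery rate below 0.05, against 2.9% of all its genes, and 37 had a ratio below 1 at a p-value below 0.05, against 22% of all its genes. The rates of those 11 members all lay between 0.0434 and 0.0499, just under the threshold. In the same deposited table the ratio was below 1 for 43 of 44 members and for 67.3% of all genes.

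The lowest values came mostly from 3 MI+TRD libraries. Replicates 1, 4 and 5 of that group held the lowest values of all 12 libraries, below every other library, for 30 of 43 members. Members lay below the lowest MI library in 39 cases in replicate 1 and in 38 each in replicates 4 and 5, but in 5, 8 and 24 cases in replicates 2, 3 and 6. The same counts over all genes tested are not given here, so these cannot be called particular to the members. The members together took 1.43% to 1.78% of the column total in the MI libraries, 1.69%, 1.68% and 1.40% in MI+TRD replicates 2, 3 and 6, and 1.09%, 1.05% and 0.935% in replicates 1, 4 and 5. Leaving these 3 out was chosen after their values were seen, and leaving out the lowest libraries shrinks a difference by construction. Without those 3 libraries 41 members still had a fold change below 0, the median was −0.28 against −0.15 over all genes, and 3 members were lower at an unadjusted p below 0.05, as were 9.69% of all genes tested. Those 3 were Ndufs7, Ndufaf3 and Ndufa8.

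The same libraries stood apart in some other measures but not in all, and the part of these measures in the result was not tested. Genes at 0 reads numbered 119, 114 and 178 in MI+TRD replicates 1, 4 and 5, against 13 to 46 in replicates 2, 3 and 6 and 28 to 75 in MI. The alpha-globin gene Hba2 measured 88.3, 234 and 465 there, against 0.498 to 2.71 in replicates 2, 3 and 6 and 0.809 to 25.7 in MI. The 7 erythroid markers, Hba2 among them, summed to 310, 743 and 1124 in replicates 1, 4 and 5. That sum was 583 to 730 in replicates 2, 3 and 6 and 214 to 938 in MI, so it did not separate these libraries. The summed normalized counts of 76 cytosolic ribosomal protein genes, whose transcripts are short, were 4551 and 5048 in replicates 1 and 4, 6615 in replicate 5, 7795 to 9521 in the others of that group and 6703 to 13742 in MI. The 12 cardiomyocyte markers were all detected in every library, with sums of 46634 to 73673 in MI, 53179, 50134 and 56598 in MI+TRD replicates 1, 4 and 5, and 43844, 48604 and 39123 in replicates 2, 3 and 6. Single markers differed. Myh6, a cardiac myosin gene, was 19031, 19852 and 13923 in replicates 1, 4 and 5 against 9861 to 19617 in MI. In replicates 2, 3 and 6 it was 11182, 13056 and 7296. Tnnt2, cardiac troponin T, was 3649, 3888 and 3683 in replicates 1, 4 and 5 against 4045 to 6554 in MI. It was also 3689 in replicate 6, with 4146 and 4556 in replicates 2 and 3. In replicates 1, 4 and 5 Tnni3 (1391, 1575 and 1363) and Actc1 (5715, 5625 and 6259) were inside the MI ranges. Those ranges were 1320 to 2529 and 4835 to 8894. In such bulk samples fewer cells of a type and less RNA per cell cannot be told apart. Atrial markers, 5 of 6 in the table, summed to 221 to 11988 in MI and 137 to 3341 in MI+TRD. The 7 endothelial markers summed to 741, 832 and 688 in MI+TRD replicates 1, 4 and 5. Their sums were 386, 453 and 446 in replicates 2, 3 and 6, below the MI range of 520 to 751. The 10 macrophage markers summed to 46.6, 46.5 and 84.1 in replicates 1, 4 and 5. Those sums were 221, 108 and 2073 in replicates 2, 3 and 6, and 66.4 to 194 in MI. Fibroblast, smooth muscle and pericyte, and epicardial marker sums did not separate these libraries. The deposited gene span was 7274 bases at the median of the members and 21292 at that of all genes tested. Each library held 7197352 to 10304189 recovered reads, of which a single member had between 50 and 13128 reads in a library.

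**Figure D1:**
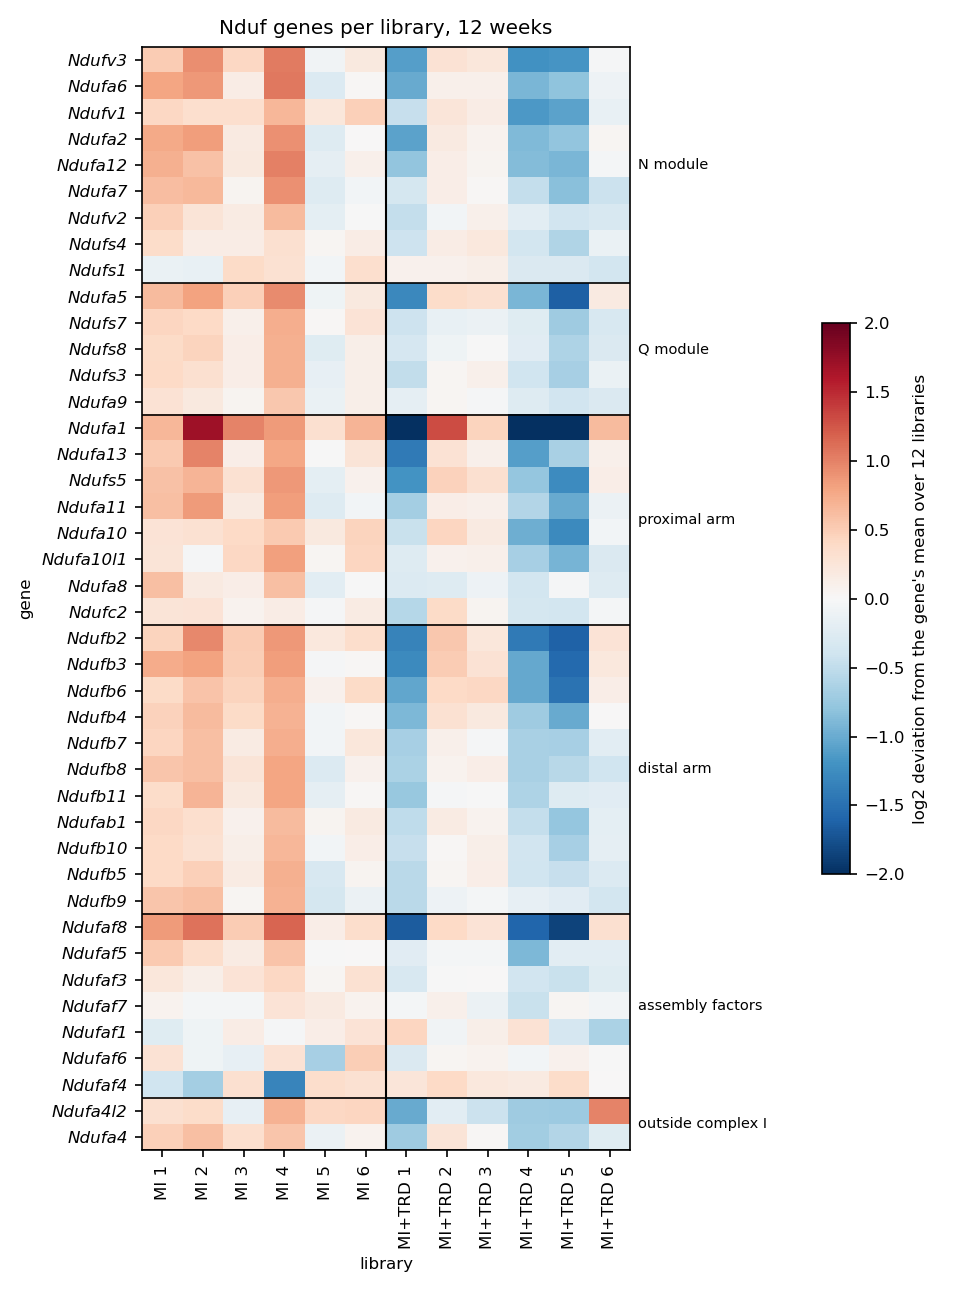
Log2 deviation of 42 of the 43 Nduf genes (rows, grouped by place in complex I) from its own mean over the 12 libraries of 12 weeks (columns), with colours limited to 2 in either direction. MI+TRD replicates 1, 4 and 5 are low for 30 members below every other library, MI replicate 4 is the highest for 30 members, and Ndufaf4 runs the other way.

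The N module holds the NADH-binding end of the enzyme. Of its 9 members with values per library, 8 were lower at an unadjusted p below 0.05, with a median log2 fold change of −0.81 (−0.33 without MI+TRD replicates 1, 4 and 5), and 5 of 10 fell in the authors' deposited table at a false discovery rate below 0.05. Ndufv1 (chromosome 1, 219254293 to 219259329, rn6) encodes the flavin-bearing subunit that oxidises NADH. Its values ran from 375 to 510 in MI with a median of 418, and from 144 to 380 in MI+TRD with a median of 262. MI+TRD replicate 2 alone reached into the MI range, at 380, while replicates 4 and 5 measured 144 and 153. It had a log2 fold change of −0.82 (SE 0.23; limma adjusted p = 0.133), and −0.33 without MI+TRD replicates 1, 4 and 5.

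Ndufv3 (chromosome 20, 10265826 to 10275298), an accessory subunit beside Ndufv1, ran from 75.9 to 164 in MI with a median of 110. In MI+TRD it ran from 34.2 to 97.5 with a median of 57.9. Replicates 1, 4 and 5 of MI+TRD, between 34.2 and 37.2, were below every MI library, and the other 3 fell inside the MI range. The MI+TRD mean was 53.5% of the MI mean (limma adjusted p = 0.133), and the log2 fold change without those 3 libraries was −0.34. Ndufa6, an accessory subunit of the LYR family, had a mean of 173 ± 61.8 in MI and 93.9 ± 33.2 in MI+TRD (mean ± SD, n = 6 a group). For the accessory subunit Ndufa2 the means were 122 ± 39.8 and 70.3 ± 26.2, and for Ndufa12 they were 247 ± 75.5 and 142 ± 48.2, with MI given first (mean ± SD, n = 6 a group). These 3 had log2 fold changes between −0.87 and −0.81, which were −0.40, −0.31 and −0.35 without MI+TRD replicates 1, 4 and 5.

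Ndufs1 (chromosome 9, 69919865 to 69953183), the iron-sulphur subunit that takes electrons from the flavin end, was the N module member with the largest p. Its values ran from 270 to 389 in MI and from 232 to 326 in MI+TRD, with medians of 328 and 281, and the groups overlapped widely. MI+TRD replicate 1, below the MI range for 39 members, measured 318 for Ndufs1, against MI replicates 1 and 2 at 274 and 270. The log2 fold change was −0.22 (SE 0.15; limma adjusted p = 0.411), and it turned to 0.0161 with equal column totals and 0.0250 with quantile normalization. For Ndufs6, an N module subunit that only the authors' deposited table lists, the least-squares means at 12 weeks were 0.950 in MI and 0.804 in MI+TRD (false discovery rate 0.687).

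The Q module carries the last iron-sulphur clusters and the ubiquinone site. All 6 of its members were lower at an unadjusted p below 0.05, with a median log2 fold change of −0.51 (−0.26 without MI+TRD replicates 1, 4 and 5). Ndufs7 (chromosome 7, 12318776 to 12326049), which holds the cluster that reduces ubiquinone, ran from 97.4 to 158 in MI with a median of 121. In MI+TRD it ran from 58.5 to 88.7 with a median of 79.3. Every MI+TRD library was below every MI library, replicates 2, 3 and 6 included. Its log2 fold change was −0.65 (SE 0.14; limma adjusted p = 0.133), −0.52 (SE 0.16) without MI+TRD replicates 1, 4 and 5, and the two-sided exact permutation p was 0.00216, the smallest that 6 against 6 libraries allow.

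Groups that did not overlap were seen for 3 of 43 members (6.98%), against 1.59% of all genes tested in the same direction. Overlap was counted in the deposited scaling only, and other scalings were not examined for it. Besides Ndufs7 they were the assembly factors Ndufaf3 and Ndufaf5, all 3 with MI+TRD below MI. Ndufs8, another iron-sulphur subunit of the Q module, had means of 166 ± 37.6 in MI and 115 ± 16.2 in MI+TRD (mean ± SD, n = 6 a group), with 3 MI+TRD libraries below the lowest MI library. Ndufa9, an accessory subunit at the joint of the arms with the largest p of this module, had means of 255 ± 41.2 and 197 ± 22.4 (mean ± SD, n = 6 a group) and a log2 fold change of −0.36 (SE 0.13; limma adjusted p = 0.150). The accessory subunit Ndufa5 had a log2 fold change of −0.99, which was −0.21 without MI+TRD replicates 1, 4 and 5.

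**Figure D2:**
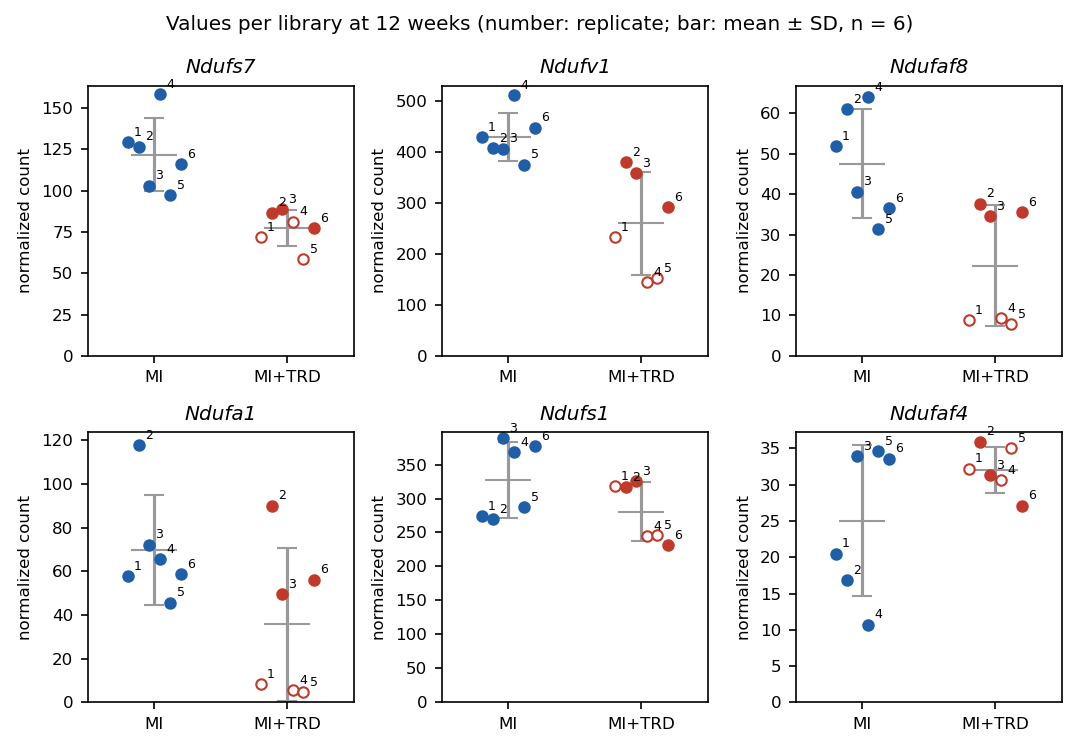
Normalized counts per library at 12 weeks for 6 Nduf genes in MI (blue) and MI+TRD (red), with the replicate number at each point, open points for MI+TRD replicates 1, 4 and 5, and the mean ± SD (n = 6) in grey. Ndufs7 does not overlap between the groups, Ndufaf8 and Ndufa1 are low in the open points alone, Ndufs1 overlaps widely and Ndufaf4 is low in MI replicates 1, 2 and 4.

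In the proximal membrane arm 7 of 8 members were lower at an unadjusted p below 0.05, with a median log2 fold change of −0.72 (−0.23 without the same 3 libraries). Ndufa1, a small membrane subunit needed for assembly of the complex, had the lowest limma fold change of all members, while Ndufaf8 was the lowest with edgeR, with DESeq2 and in the authors' deposited table. Its values in MI ran from 45.7 to 118 with a median of 62.1, and in MI+TRD they were 8.54, 5.70 and 4.79 in replicates 1, 4 and 5 and 90.1, 49.5 and 56.3 in replicates 2, 3 and 6. The MI+TRD libraries thus fell into a low and a high set, and each of replicates 2, 3 and 6 lay inside the MI range. The log2 fold change of −1.73 (SE 0.64; limma adjusted p = 0.150) became −0.08 (SE 0.26) without replicates 1, 4 and 5, and it was −0.82 with edgeR and −0.80 with DESeq2. The deposited coordinates of Ndufa1 (chromosome X, 123803116 to 124516792) span 713677 bases, far more than its other module members, so which reads were assigned to it is uncertain.

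Ndufa13, also known for a role in cell death, had means of 129 ± 35.3 in MI and 74.1 ± 33.0 in MI+TRD (mean ± SD, n = 6 a group), and Ndufa11, a membrane subunit at the junction with the supercomplex, 220 ± 69.2 and 133 ± 41.2 (mean ± SD, n = 6 a group). Fold changes (log2) were −0.89 (SE 0.28) and −0.72 (SE 0.24). Ndufa10 and Ndufa10l1 are similar copies that could share reads, so the division between them is uncertain. From MI to MI+TRD the mean of Ndufa10 went from 207 ± 17.4 to 137 ± 58.5 and that of Ndufa10l1 from 138 ± 30.3 to 89.1 ± 24.0 (mean ± SD, n = 6 a group), and both had their lowest values in MI+TRD replicates 4 and 5. Ndufc2, with the largest p of this arm, ran from 60.0 to 73.5 in MI and from 40.9 to 79.5 in MI+TRD, where replicate 2 was the highest of all 12 libraries. Its log2 fold change was −0.29 (SE 0.15; limma adjusted p = 0.267), and −0.01 without MI+TRD replicates 1, 4 and 5.

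All 11 members of the distal membrane arm were lower at an unadjusted p below 0.05, with fold changes from −1.11 to −0.47 and a median of −0.68 (log2), which was −0.27 without those 3 libraries. Ndufb7 (chromosome 19, 24701067 to 24705406), an accessory subunit on the outer face of the membrane, ran from 201 to 343 in MI with a median of 262, and from 131 to 224 in MI+TRD with a median of 157. Replicates 2 and 3 of MI+TRD, at 224 and 205, reached into the MI range and the other 4 did not. This was a log2 fold change of −0.70 (SE 0.18; limma adjusted p = 0.133). Ndufb11 (chromosome X, 1787266 to 1789525), a subunit of which human variants cause a cardiomyopathy, had means of 227 ± 58.1 in MI and 145.4 ± 29.7 in MI+TRD (mean ± SD, n = 6 a group), with 4 MI+TRD libraries below the lowest MI library.

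Ndufb2 had the lowest fold change of this arm and one of the sharpest splits. Its values were 33.5, 31.9 and 27.5 in MI+TRD replicates 1, 4 and 5, 124, 99.3 and 102 in replicates 2, 3 and 6, and 98.8 to 165 in MI. Its log2 fold change of −1.11 (SE 0.35; limma adjusted p = 0.133) became −0.21 without the first 3. Ndufb9, with the largest p of this arm, ran from 287 to 588 in MI and from 252 to 355 in MI+TRD, with 2 MI+TRD libraries below the lowest MI library. Its log2 fold change was −0.47 (SE 0.19; limma adjusted p = 0.166), and −0.41 without MI+TRD replicates 1, 4 and 5. Ndufab1, the mitochondrial acyl carrier protein that also serves fatty acid synthesis, had means of 173 ± 27.2 in MI and 119 ± 29.7 in MI+TRD (mean ± SD, n = 6 a group).

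The assembly factors were the most uneven group: 3 of 7 had an unadjusted p below 0.05 and lower values, the median log2 fold change was −0.17, and the values ran from −1.37 to 0.47. Without MI+TRD replicates 1, 4 and 5 their median was −0.23, further below 0, and 1 was lower at an unadjusted p below 0.05. Ndufaf3 (chromosome 8, 117351628 to 117353461), which acts early on the Q module, ran from 26.8 to 34.9 in MI with a median of 31.2, and from 19.1 to 26.1 in MI+TRD with a median of 21.4. The groups did not overlap, and the log2 fold change was −0.47 (SE 0.12; limma adjusted p = 0.133), or −0.32 without MI+TRD replicates 1, 4 and 5. Ndufaf5, an enzyme that modifies Ndufs7 during assembly, was at least 6.61 in MI, with a median of 7.98, and ran from 3.48 to 6.46 in MI+TRD, again without overlap. Ndufaf8, the partner that stabilises Ndufaf5, ran from 31.3 to 63.9 in MI, and in MI+TRD it was 8.89, 9.39 and 7.77 in replicates 1, 4 and 5 and 34.5 to 37.6 in the others. Ndufaf5 was thus below the MI range in every MI+TRD library in the deposited scaling, but narrowly. MI+TRD replicates 2 and 3 measured 6.44 and 6.46, and MI replicates 5 and 6 measured 6.61 and 6.68. Ndufaf8 was inside the MI range in 3 MI+TRD libraries. Ndufaf8 had a log2 fold change of −1.37 (SE 0.40; limma adjusted p = 0.133), and −0.36 without those 3 libraries.

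Ndufaf4, which acts together with Ndufaf3, was the 1 member with a higher mean in MI+TRD. Its values ran from 10.7 to 34.7 in MI and from 27.1 to 35.9 in MI+TRD. The difference lay in MI replicates 1, 2 and 4, at 20.5, 16.8 and 10.7, since the other MI libraries, at 33.6 to 34.7, were among the MI+TRD values. This gave a log2 fold change of 0.47 (SE 0.25; limma adjusted p = 0.287), and 0.25 without MI replicate 4. Ndufaf6 had the largest p of the assembly factors, with 3.36 to 7.72 in MI and 4.40 to 5.81 in MI+TRD. Its log2 fold change of −0.05 (SE 0.19; limma adjusted p = 0.908) changed sign under other scalings, at 0.11 with median ratios, 0.18 with equal column totals and 0.0909 with quantile normalization. Ndufaf7, a methyltransferase needed for assembly, and Ndufaf1, a chaperone of the membrane arm, had log2 fold changes of −0.17 (SE 0.13) and −0.06 (SE 0.18).

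Of the genes with an Nduf name outside complex I, Ndufa4 is now placed in cytochrome c oxidase and Ndufa4l2, its paralog, is induced by hypoxia-inducible factor. Ndufa4 ran from 388 to 637 in MI with a median of 555, and from 255 to 503 in MI+TRD with a median of 317. Only MI+TRD replicates 2 and 3 reached into the MI range, and the log2 fold change was −0.65 (SE 0.19; limma adjusted p = 0.133). Ndufa4l2 ran from 4.74 to 8.76 in MI and from 2.55 to 4.53 in MI+TRD replicates 1 to 5, while MI+TRD replicate 6 was the highest of all 12 libraries at 10.7. Its log2 fold change was −0.69 (SE 0.28; limma adjusted p = 0.169). Replicate 6 also held the highest sum of 10 macrophage markers, 2073 against 46.5 to 221 in the other libraries of 12 weeks. Its sums of fibroblast markers (3100 against 722 to 1388) and epicardial markers (93.4 against 13.8 to 59.5) were the highest too. Its cardiomyocyte sum, 39123, was the lowest. The part of these differences in its Ndufa4l2 value was not tested.

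**Figure D3:**
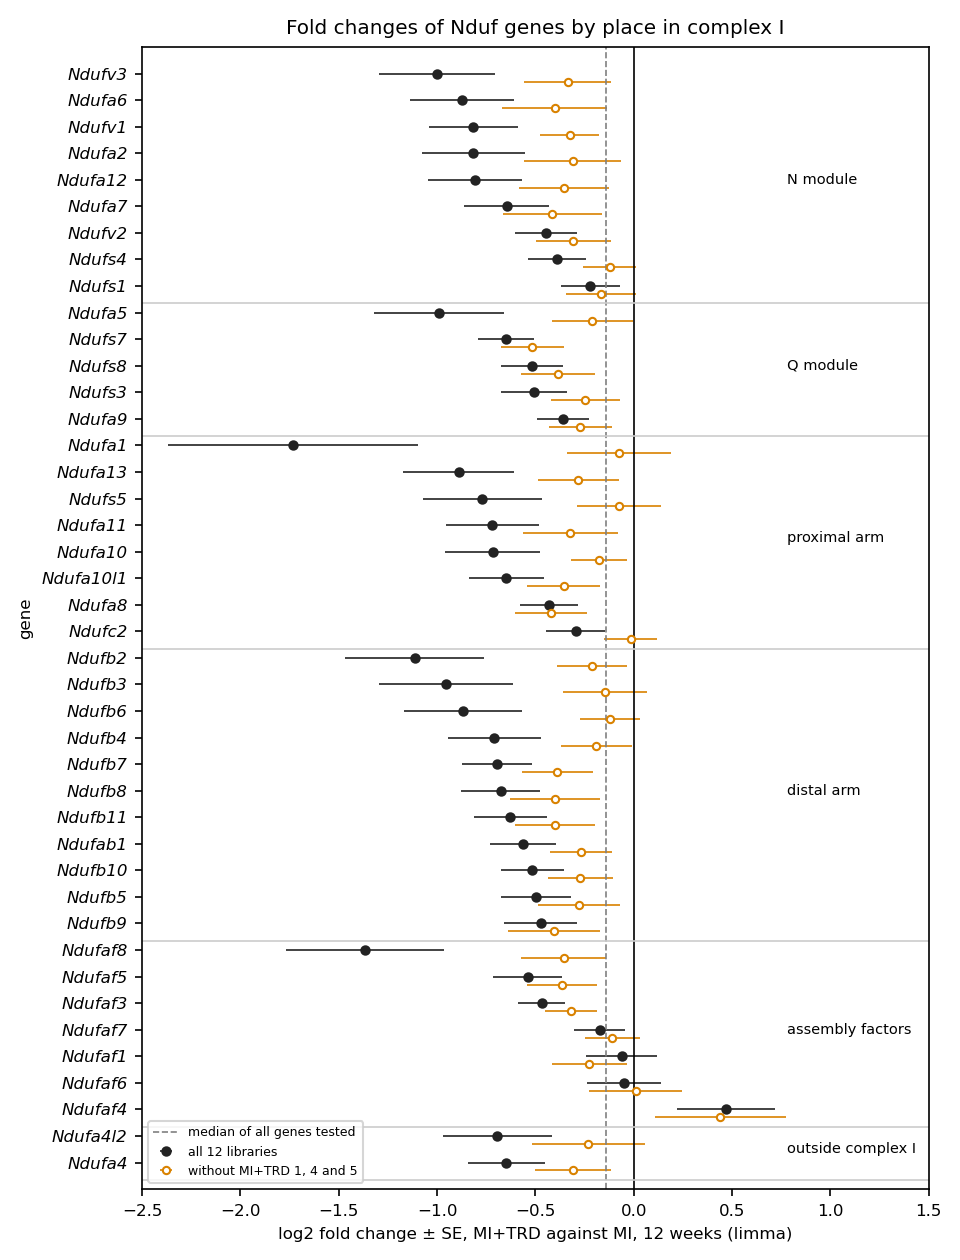
Log2 fold change with its SE (limma, MI+TRD against MI at 12 weeks) of 42 of the 43 Nduf genes, grouped by place in complex I, with all 12 libraries (black) and without MI+TRD replicates 1, 4 and 5 (orange, open). Over all 43 members the black values have a median of −0.65 and the open ones of −0.28, and the dashed line is the median of all genes tested at −0.14.

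Most members moved together from library to library. Over the 12 libraries, Pearson's r of a member's log2 value with the mean of the other members was above 0.8 for 35 of 43 members, with a median of 0.93. These points share their libraries and scaling, so the values are a description. The difference between the groups was not removed, so libraries that are low for many members raise r. No r is given for other genes, so a high r cannot be called particular to the members. The 8 others were the assembly factors Ndufaf1, Ndufaf4, Ndufaf6 and Ndufaf7, with r of −0.18, −0.63, 0.33 and 0.52, together with Ndufs1 (0.48), Ndufa8 (0.69), Ndufa4l2 (0.69) and Ndufb9 (0.76). MI replicate 4 was the highest library for 30 members, and its median gene also lay 0.29 (log2) above the mean over all libraries in the deposited scaling. Ndufaf4 was lowest in that library.

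Other genes of the pathway were counted in lists chosen by function, beside the 19.1% of all genes tested that were lower, with no test of a difference from the Nduf genes. Of 9 measured complex I assembly factors without an Nduf name, 4 were lower at an unadjusted p below 0.05 and 0 higher, with a median log2 fold change of −0.34. Timmdc1, which builds the proximal membrane arm, had means of 20.6 ± 3.32 and 13.6 ± 3.40 in MI and MI+TRD, and Acad9, which acts with Ndufaf1, 43.4 ± 4.55 and 31.8 ± 7.57 (mean ± SD, n = 6 a group). Among the rest of the chain, complex II, the other entry of electrons, had 5 of 6 measured genes lower with a median of −0.49, and complex III with cytochrome c had 7 of 10 lower with a median of −0.66. Without MI+TRD replicates 1, 4 and 5 these 3 lists had 0 of 9, 1 of 6 and 0 of 10 lower, with medians of −0.20, −0.24 and −0.23. Lower values were not confined to the chain. Of 76 cytosolic ribosomal protein genes 29 were lower and 0 higher, with a median of −0.49. Without the same 3 libraries 0 were lower and the median was −0.11. Of 14 regulators of mitochondrial gene expression 2 were lower and 0 higher, with a median of −0.09, against −0.14 over all genes. The 2 were Esrra, the nuclear receptor ERR-alpha, at 87.9 ± 21.2 and 59.4 ± 10.9, and Tfam, the mitochondrial transcription factor, at 24.8 ± 1.85 and 16.9 ± 5.73 (mean ± SD, n = 6 a group). The coactivator gene Ppargc1a had means of 12.2 ± 3.73 and 17.2 ± 6.52 (mean ± SD, n = 6 a group; limma adjusted p = 0.363).

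Promoters are shown for 4 genes: Ndufs7, Ndufaf8 and Ndufa6 as members that fell in the authors' deposited table, and Ndufaf4 as the 1 member with a higher mean. Each is the RefSeq window of 300 bases around the gene's start in the build GRCr8, most of it upstream, on the gene's strand, and capitals mark matches to the motifs described below other than CCAAT. The windows are chr7:10110449-10110748 (minus strand) for Ndufs7, chr10:105879658-105879957 (plus) for Ndufaf8, chr7:115750268-115750567 (minus) for Ndufa6 and chr5:43401545-43401844 (plus) for Ndufaf4.
Ndufs7: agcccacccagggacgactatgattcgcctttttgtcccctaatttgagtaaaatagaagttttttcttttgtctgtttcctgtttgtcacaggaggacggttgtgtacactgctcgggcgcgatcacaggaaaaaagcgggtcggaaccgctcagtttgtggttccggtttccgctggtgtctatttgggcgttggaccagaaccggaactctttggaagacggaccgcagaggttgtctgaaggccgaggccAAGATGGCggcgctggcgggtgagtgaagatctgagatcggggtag
Ndufaf8: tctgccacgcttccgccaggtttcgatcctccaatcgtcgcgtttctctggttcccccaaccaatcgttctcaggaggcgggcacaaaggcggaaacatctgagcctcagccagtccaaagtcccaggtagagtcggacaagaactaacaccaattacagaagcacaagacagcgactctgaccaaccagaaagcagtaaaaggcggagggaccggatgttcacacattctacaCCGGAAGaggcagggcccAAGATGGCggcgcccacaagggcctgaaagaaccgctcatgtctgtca
Ndufa6: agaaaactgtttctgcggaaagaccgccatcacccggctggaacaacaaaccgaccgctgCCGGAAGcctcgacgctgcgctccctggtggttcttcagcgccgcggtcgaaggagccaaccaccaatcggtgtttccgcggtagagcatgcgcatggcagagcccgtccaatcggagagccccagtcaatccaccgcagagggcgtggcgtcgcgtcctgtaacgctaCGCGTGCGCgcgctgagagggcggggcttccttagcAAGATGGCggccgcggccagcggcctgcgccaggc
Ndufaf4: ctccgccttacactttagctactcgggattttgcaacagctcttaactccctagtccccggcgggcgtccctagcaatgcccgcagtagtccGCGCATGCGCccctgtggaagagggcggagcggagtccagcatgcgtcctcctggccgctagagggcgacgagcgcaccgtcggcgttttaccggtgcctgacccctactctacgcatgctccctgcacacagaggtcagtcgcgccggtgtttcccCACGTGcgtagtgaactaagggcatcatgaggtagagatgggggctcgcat

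Of the 44 genes, 39 had a promoter window, and motifs were searched on both strands. AAGATGGC, a core of the YY1 motif, was in 9 of 39 member promoters (23.1%), against 5.77% of 8365 windows of genes tested here and 3.17% of all 33469 windows. In all 9 it read in the direction of the gene and began between 1 base before and 27 after the start. In Ndufs7 and Ndufaf8, printed above, it began at positions 5 and 3 counted from the start, and in Ndufa6 at position 16. GCGCANGCG, a core of the NRF1 motif whose matches on the opposite strands can overlap, was in 11 members (28.2%), against 13.3% of the tested genes' windows and 5.80% of all windows. Ndufaf4, which had the opposite direction, also held it, 158 bases before the start.

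CCGGAAG, the ETS core bound by GABP, was in 9 members (23.1%), against 18.0% and 8.75%. The E-box CACGTG was in 3 (7.69%), against 9.52% and 6.42%, and CCAAT in 12 (30.8%), against 37.5% of both sets. TNAAGGTCA, the element of ERR receptors, was in 1 (2.56%), against 0.538% and 1.20%. Member promoters had a median of 57.0% G and C, against 51.7% over all windows. Matches in the windows are descriptions of sequence, and whether they go with the fold changes was not tested.

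At 6 weeks, in the authors' deposited table, 37 of 44 members had a ratio of MI+TRD to MI below 1, against 57% of all genes. The median ratio was 0.873 for the members and 0.973 for all genes, compared with 0.638 and 0.896 at 12 weeks. At 6 weeks 0 members had a false discovery rate below 0.05, as did 0% of all genes with a lower ratio, and the members' lowest rate was that of Ndufaf7. The authors' deposited p-value was below 0.05 for 0 members with a lower ratio and for 1 with a higher one, against 4.42% of all genes on the higher side. That one was Ndufaf7, with a ratio of 1.25 and a false discovery rate of 0.536. The lowest ratio at 6 weeks was that of Ndufb9, 0.740, with deposited least-squares means of 468 in MI and 347 in MI+TRD. For Ndufb7 the ratio was 0.771 at 6 weeks and 0.606 at 12 weeks in the authors' deposited tables.

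As the authors' deposited values give it, 36 of 44 members had a ratio below 1 at both times, against 42.3% of all genes. For 43 of 44 the ratio at 12 weeks was the lower one, against 64.3% of all genes. Whether the effects at the 2 times differ was not tested, because the 6-week samples entered only as the authors' group values. Ndufaf8 had 0.883 and then 0.452 in the authors' deposited tables, Ndufa1 0.835 and then 0.495, and Ndufv1 0.900 and then 0.590. Ndufa4l2 was above 1 at 6 weeks, at 1.26, and at 0.649 at 12 weeks. Across the 44 members the log2 ratios of the 2 times had a Pearson's r of 0.51, given as a description over genes that share libraries.

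**Figure D4:**
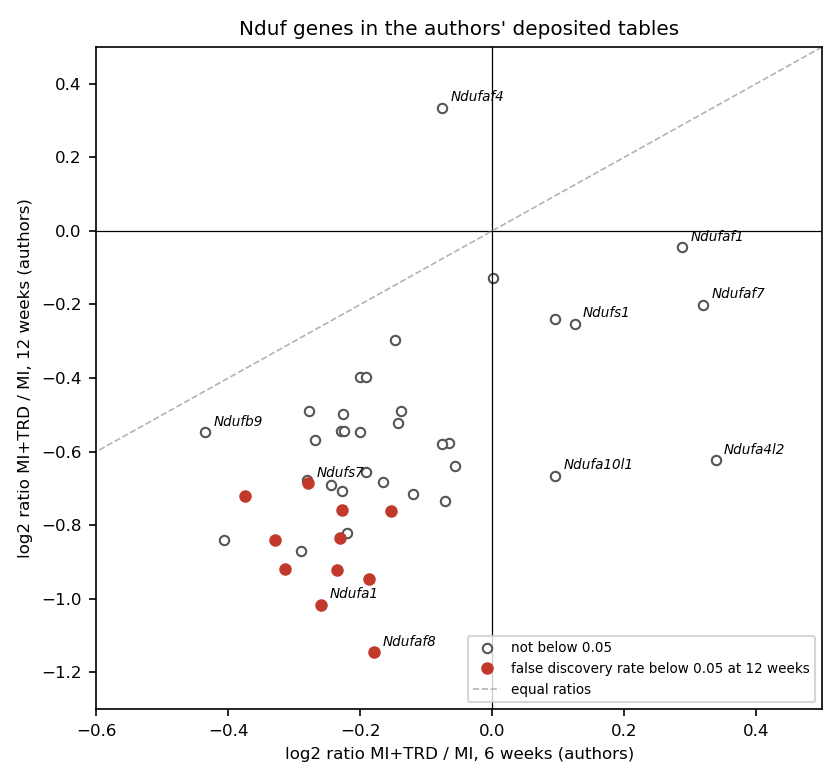
Log2 ratio of MI+TRD to MI for 44 Nduf genes in the authors' deposited tables, at 6 weeks (horizontal) against 12 weeks (vertical), with red points for the 11 members whose false discovery rate was below 0.05 at 12 weeks. All points but Ndufaf4 lie below the dashed line of equal ratios, so 43 members had the lower ratio at 12 weeks.

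The authors' deposited least-squares means also differed between the times within each group, although whether the tables share 1 scaling is not given in the sources used here and no test was made. In MI the mean at 12 weeks was above that at 6 weeks for 41 of 44 members, with a median ratio of 1.16, against 55.9% of all genes and a median of 1.03. In MI+TRD it was below for 36 of 44 members, with a median of 0.867, against 60.4% of all genes and a median of 0.928. Ndufv1 had deposited means of 342 and 449 in MI at 6 and 12 weeks, and of 308 and 265 in MI+TRD. The lower ratios at 12 weeks thus went with higher MI means as well as lower MI+TRD means.

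Scaling changed how many members were lower at an unadjusted p. With median ratios 29 members were lower and 1 higher, against 8.22% lower of all genes. With equal column totals 20 were lower and 1 higher, against 3.87% lower, and with quantile normalization 30 and 0, against 9.78%. Under these scalings the median of all genes moved from −0.14 to 0.01, 0.08 and −0.01, and the members' median relative to it was −0.50, −0.50 and −0.43, compared with −0.50 in the deposited scaling. With library weights 20 were lower, against 13.7%, and the members' median was −0.39, or −0.26 relative to all genes. On recovered reads edgeR had 22 members lower, against 6.98%, and DESeq2 28, against 7.25%, and 0 members passed an adjusted p of 0.05 with either; Ndufs7 had the lowest DESeq2 adjusted p, 0.0673.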

How the data were processed

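PolyA RNA was sequenced (Illumina), per the labels' protocols. Partek and the build rn6 stand in the submitters' processing notes; the aligner, counting, strand use and scaling, and how p-values were computed, are not given there or elsewhere in the sources. For 12 weeks the authors deposited normalized counts (a signal) by gene and library. They also deposited a table per time with the p-value, the false discovery rate, the ratio of MI+TRD to MI and the least-squares means. In each library 97.2% to 98.6% of values up to 20 steps lay within 0.1 of whole multiples of 1 step, so reads were recovered as the value over the step, minus 1.

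limma 3.58.1 (trended prior, two-sided, Benjamini-Hochberg over 10655 genes, threshold 0.05) was fitted in R 4.3.3 to log2(value + 0.208 units), keeping genes with a mean share of at least 1 ppm of the column total. Fold changes on that scale understate those of low genes. edgeR 4.0.16 and DESeq2 1.42.0 were run on the recovered reads. The steps were tested on simulated data. The labels name no animals, so p-values reflect only how these samples vary, which may be technical. The lowest chi-square per degree of freedom between libraries of a group was 14.5, so none was a duplicate. Genes with values per library were, in each module, the 2 with the smallest and the 1 with the largest p, the extremes of fold change and level, Ndufa4, Ndufa4l2, Ndufab1 and members called in, or leading, the authors' tables. Ndufs6, Ndufa5, Ndufa7, Ndufa8, Ndufa10, Ndufaf1, Ndufaf5 and Ndufb5, and the genes named from other lists or as neighbours, were added after their values were seen. A member counted in the totals is not reported here by itself. Members and lists were chosen with earlier results of these data known.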

Additional observations from a re-analysis of the deposited data

Results flagged for a closer look

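Among 86 sets of 6 libraries (43 members in 2 groups), 3 held a library far from the other 5, where chance flags about 1 in 20 sets. Ndufa1 measured 118 in MI replicate 2, against 45.7 to 72.2 in the other MI libraries. MI replicate 2 also had the highest sum of atrial markers, 11988, and of cytosolic ribosomal protein genes, 13742. Ndufa4l2 measured 10.7 in MI+TRD replicate 6, against 2.55 to 4.53 in the remaining 5 of its group. Ndufaf5 measured 3.48 in MI+TRD replicate 4, against 5.65 to 6.46 in the others of its group. Whether the measures named here played a part was not tested.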

How the results depend on the processing

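Over 24 alternatives, 23 of the 26 members with values per library kept the direction of their fold change and none of the 26 passed an adjusted p of 0.05 with limma, edgeR or DESeq2 (lowest 0.0668). Ndufaf6 changed sign with median ratios (0.11), equal column totals (0.18), quantile normalization (0.0909), edgeR (0.0562), DESeq2 (0.0684), library weights (0.0235) and without MI+TRD libraries 1, 4 and 5 (0.00922), and ran from −0.19 to 0.0425 with single libraries left out. Ndufs1 changed sign with equal column totals (0.0161) and quantile normalization (0.0250), and Ndufaf7 with equal column totals (0.0595). The count of lower members, 37, was 20 with equal column totals, 22 with edgeR, 20 with library weights and 3 without MI+TRD libraries 1, 4 and 5, an alternative chosen after seeing the data that also has fewer samples. The members' median log2 fold change was −0.28 without those libraries and −0.39 with library weights. With single libraries left out the count ran from 34 to 38 and the median from −0.72 to −0.55. DESeq2 called 18 genes in all and the other fits 0. With a least-squares mean of at least 10, ratios below 1 numbered 36 at 6 weeks and 38 at 12 weeks in the authors' deposited tables. Unfiltered, they numbered 37 and 43 of 44. That filter left out Ndufa4l2, Ndufaf1, Ndufaf5, Ndufaf6 and Ndufs6, so the lower counts reflect fewer members, not changed ratios. At 12 weeks Ndufaf4 alone was above 1 either way. The share of all genes under that filter is not given here. With the replicate number as a block 37 members were lower. Libraries of the same number had correlations of −0.33 to 0.33, below 0.1 for replicates 1 and 6 (−0.25 and −0.33), so not every number paired its libraries. As a hint from the data, 4 of 6 matched best with their own number. MI replicate 1 matched best with MI+TRD replicate 6, and MI replicate 6 with MI+TRD replicate 1. Whether the numbers mark a pairing was not tested. Depth limits 3 members with under 100 reads in a library. The cause of these changes was not tested.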

Other observations

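Several Nduf genes start close to a gene on the opposite strand. In the deposited coordinates (rn6), 9 of 43 members (20.9%) had such a neighbour starting upstream within 1000 bases, against 7.73% of all 10723 genes in the table. The neighbour had the higher (less negative or positive) fold change in 7 of 9 pairs and the lower one in 2. With a median log2 fold change of −0.65 for the members and −0.14 over all genes, most other genes are higher than a member. The count is therefore not particular to neighbours. Ndufb11 had a log2 fold change of −0.63 and its neighbour Rbm10, an RNA-binding splicing regulator 292 bases away, −0.38 (limma adjusted p = 0.161). Ndufaf8 had −1.37 and Tepsin, 201 bases away, −0.33 (limma adjusted p = 0.252). Ndufb5 had −0.50 and the mitochondrial ribosomal protein gene Mrpl47, 265 bases away, −0.02 (limma adjusted p = 0.963). Ndufaf5 had −0.54 and Esf1 0.18 (limma adjusted p = 0.456), 126 bases away. The 2 pairs with the lower neighbour were Ndufa7, at −0.65 against −0.75 for the ribosomal protein gene Rps28, 112 bases away (limma adjusted p = 0.411), and Ndufs1, at −0.22 against −0.46 for the translation elongation factor gene Eef1b2, 257 bases away (limma adjusted p = 0.231). Where counting did not use strand, reads of overlapping neighbours cannot be told apart. No difference between a member and its neighbour was tested.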
